A study of Mus musculus with 24 samples.

Results

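A set of 10 genes of fatty acid synthesis was followed through liver, cerebellum and testes of mice that lack Thumpd1. The set was given by name as Fasn, Acaca, Scd1, Elovl6, Srebf1, Acly, Me1, Thrsp, Pnpla3 and Mlxipl, and each was taken by its symbol from a table of 55450 genes, so that 10 of 10 were found. The knockout mice (Thumpd1 KO) go back to fertilized eggs of C57BL/6N mice in which genome editing was aimed at exon 1 and exon 4 of Thumpd1. Their siblings, as a rule, gave the wild type (WT), on a C57/BL6 background. Ages ran from 6 to 12 weeks and both sexes could enter, so the labels fix neither the age behind a library nor the sex behind those of liver and cerebellum. The edit is in the germline and thus in every cell, several edited lines were made, and the labels do not say which of them gave these libraries, when in the day the tissues were taken or whether the mice had food. Each tissue had 4 WT libraries, numbered 1 to 4, and 4 KO libraries, numbered 5 to 8. Thumpd1 encodes an adaptor for acetylation of serine and leucine transfer RNAs, and the comparison asks how gene expression differs without it.

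Fatty acid synthesis turns carbohydrate into fat in the cytosol. Acly cuts citrate to acetyl-CoA, Me1 makes NADPH, Acaca makes malonyl-CoA and Fasn builds palmitate from both. Elovl6 then lengthens the chain and Scd1 puts in a double bond. Thrsp (Spot 14) is a small nuclear and cytosolic protein that promotes lipogenesis, and Pnpla3 is a lipid droplet protein. Srebf1 and Mlxipl encode the transcription factors SREBP1 and ChREBP, through which insulin and glucose raise these genes in liver after a meal, while fasting lowers them.

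On the mm10 build, 4 of the 10 genes lie on chromosome 11. Fasn (ENSMUSG00000025153.9) occupies chr11:120805846-120824547 on the minus strand, Srebf1 (ENSMUSG00000020538.15) chr11:60199089-60222581 on the minus strand, Acly chr11:100476353-100528000 on the minus strand and Acaca chr11:84129672-84401651 on the plus strand. Scd1 is at chr19:44394455-44407879, Thrsp at chr7:97412938-97417730 and Me1 at chr9:86581371-86695953, all on the minus strand. Mlxipl is at chr5:135089890-135138382, Elovl6 at chr3:129532355-129638495 and Pnpla3 at chr15:84167837-84187236, all on the plus strand. Exons of 4 of them overlap exons of a gene on the other strand, by 235 bp for Mlxipl, 109 bp for Srebf1, 34 bp for Elovl6 and 30 bp for Me1. Exons of Pnpla3 overlap those of the predicted gene Gm49513 on the same strand. Scd1 has the close relatives Scd2, Scd3 and Scd4, between which reads could be split.

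The stretches of 250 bases before the start of 4 of these genes are shown because the genes are the called and the most changed members in liver, or hold the rarest of the motifs searched. They come from RefSeq on GRCm38.p6 and run 5′ to 3′ along the gene. Capitals mark matches on either strand to CCAAT (the box bound by NF-Y, a partner of SREBP1), CACGTG (an E-box) or TCACNCCAC (a sterol element).
Fasn, chr11:120824548-120824797: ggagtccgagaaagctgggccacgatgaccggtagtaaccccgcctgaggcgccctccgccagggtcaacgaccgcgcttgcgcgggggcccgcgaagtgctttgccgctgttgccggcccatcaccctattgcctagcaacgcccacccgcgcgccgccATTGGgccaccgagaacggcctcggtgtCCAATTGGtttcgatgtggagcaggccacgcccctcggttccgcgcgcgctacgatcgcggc
Thrsp, chr7:97417551-97417800: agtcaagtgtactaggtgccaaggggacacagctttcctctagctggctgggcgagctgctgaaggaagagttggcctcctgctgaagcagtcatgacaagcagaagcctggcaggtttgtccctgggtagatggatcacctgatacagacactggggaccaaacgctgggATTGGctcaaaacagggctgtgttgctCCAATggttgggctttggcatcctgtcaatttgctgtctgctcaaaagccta
Srebf1, chr11:60222582-60222831: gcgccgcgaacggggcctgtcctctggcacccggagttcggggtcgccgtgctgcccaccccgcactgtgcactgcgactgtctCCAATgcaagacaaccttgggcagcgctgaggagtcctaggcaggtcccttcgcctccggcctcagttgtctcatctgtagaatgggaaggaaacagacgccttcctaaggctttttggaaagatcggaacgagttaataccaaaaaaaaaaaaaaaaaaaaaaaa
Mlxipl, chr5:135106641-135106890: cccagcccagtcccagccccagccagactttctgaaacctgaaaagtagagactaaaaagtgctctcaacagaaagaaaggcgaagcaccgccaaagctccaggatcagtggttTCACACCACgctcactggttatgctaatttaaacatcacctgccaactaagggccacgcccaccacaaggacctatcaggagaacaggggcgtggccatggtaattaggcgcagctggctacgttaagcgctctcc

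Fasn, Thrsp and Srebf1 are read on the minus strand. The Fasn stretch held 3 matches to CCAAT, which began 90, 62 and 59 bases before the start, and the last of these overlap. Thrsp held 2, which began 79 and 52 bases before it, and Srebf1 at this start held 1, at 166 bases. Of its other 2 starts, 1 (window chr11:60210472-60210721) held a CCAAT match at 30 bases and the other none of these motifs. Counts are per gene and do not show which start was used in liver. Mlxipl at this start held the sterol element at 136 bases. Its upstream start (chr5:135089640-135089889) held an E-box at 98 bases and a CCAAT match at 173 bases. Of 32851 promoter stretches of the same length, 33.85% held CCAAT, 6.02% the E-box and 1.05% the sterol element. An entry was found for 9 of the 10 genes, with 13 starts in all, and a match is a run of letters and not evidence of binding.

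Libraries held 16353797 to 37889615 counts. In liver, 17.5% to 31.0% of the counts fell on 6 abundant noncoding RNAs, and KO 5 and 6 (27.2% and 26.4%) stood above KO 7 and 8 (18.8% and 17.5%). Thumpd1 fell in each tissue, from 9.74 ± 0.401 to 0.0567 ± 0.0436 CPM (count-per-million, SD, n = 4) in liver, and in each tissue the 4 KO libraries lay below the 4 WT libraries. Libraries with neighbouring numbers (1 and 2, 3 and 4, 5 and 6, 7 and 8) tended to deviate together from their group. Deviations from the group mean correlated at -0.49 to 0.45 in the 12 neighbouring pairs and at -0.70 to -0.23 in the 24 other pairs within groups. A chi-square per gene between libraries ran from 9.16 to 346 for liver neighbours and from 70.3 to 252 for the other liver pairs. By this measure liver WT 3 and 4 lay farthest apart, so liver neighbours were not closer throughout. In liver, the fatty acid synthesis genes other than Pnpla3 differed by at most 1.09 times within a KO pair and by up to 2.87 times between the KO pairs, and in 8 of 9 genes the pairs differed by more than their members did. In WT liver this held for 3 of 9 genes, with differences of up to 1.16 times within a pair and at most 1.46 times between pairs. The labels do not say that neighbours share an animal, a litter or a day. The p-values measure the spread between libraries as labelled, and the main results are also given with neighbours summed, which leaves 2 samples per group, or with a pair left out.

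The liver was compared first, since it is the main site of the pathway. Fasn fell to 53.0% and Srebf1 to 51.9% of the mean WT level. Thrsp had the largest log2 change, but its KO libraries were uneven and it missed the threshold. Of 9 genes tested, 2 were called lower and 0 higher, beside 3.12% of all genes called lower and 2.79% called higher in liver (5.91% in both directions, adjusted p under 0.05 in limma-voom). All 9 estimates were negative, with a median log2 change of -0.36 against -0.003 for all 12816 genes tested. For 4 genes the KO libraries all lay below the WT libraries, as they did for 5.31% of all genes, and for none of the 9 did they all lie above, as for 7.34% of all genes. In bulk tissue, fewer cells of a type and less RNA per cell cannot be told apart.

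**Figure D1:**
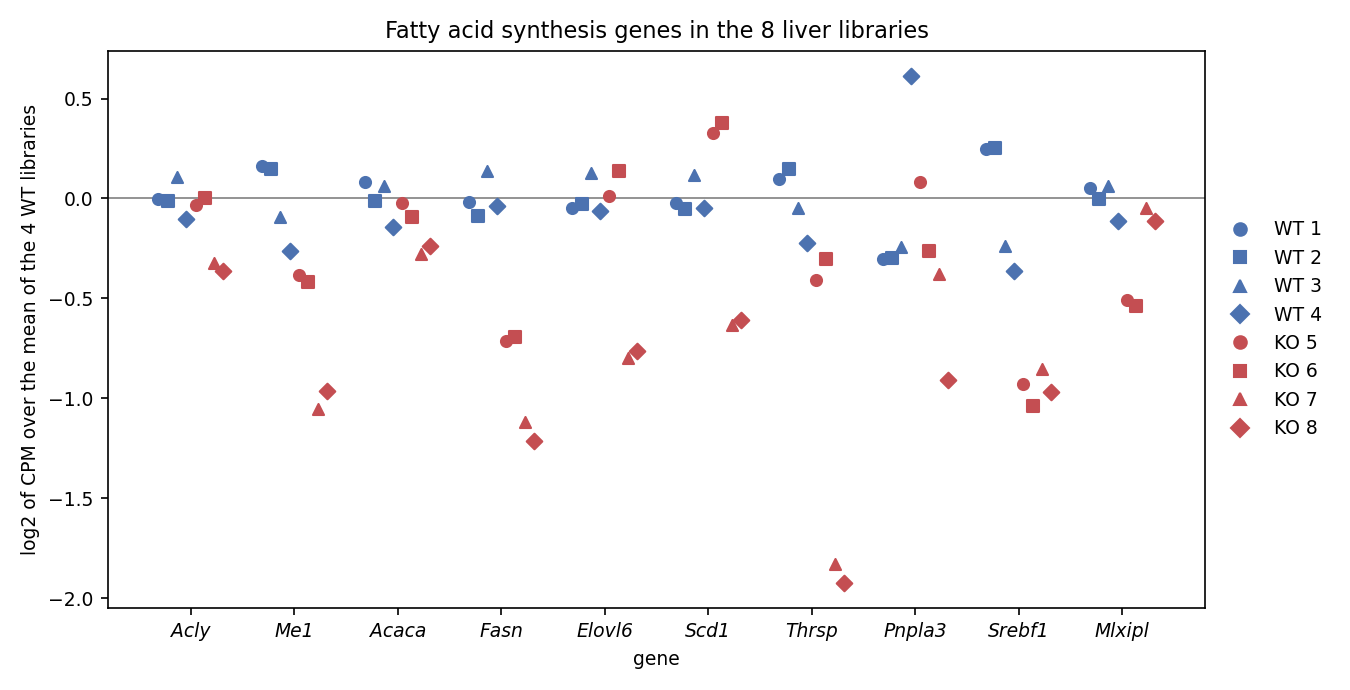
Each point is 1 liver library, with the log2 ratio of its CPM to the mean of the 4 WT libraries on the vertical axis and the gene on the horizontal axis. WT libraries are blue and KO libraries red, and marker shapes give the library numbers. In KO, neighbouring libraries lie together for the genes other than Pnpla3 and Srebf1, with 7 and 8 lowest for Thrsp, Fasn, Me1, Elovl6 and Scd1 and 5 and 6 lowest for Mlxipl.

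Among the enzymes, Fasn stood at 1621, 1542, 1805 and 1597 CPM in WT 1 to 4 and at 1000.5, 1016, 755 and 706 CPM in KO 5 to 8. The groups did not overlap, and KO 7 and 8 were lowest. Fasn thus fell from 1641 ± 114 to 869.7 ± 162 CPM (SD, n = 4), or 53.0% of WT, with a log2 change of -0.91 ± 0.155 (SE) and a limma adjusted p of 0.00813. Without KO 7 and 8 the change was -0.60 (limma adjusted p = 0.00913), without KO 5 and 6 it was -1.21 (limma adjusted p = 0.000371), and without WT 3 and 4 it was -0.75 and was not called (limma adjusted p = 0.0557). With neighbours summed it was -0.89, with a limma adjusted p of 0.267.

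Me1, which feeds NADPH to Fasn, showed the same separation of groups with a wider spread. It stood at 372, 368, 312 and 277 CPM in WT and 255, 248.9, 160.4 and 170.2 CPM in KO, and the highest KO library lay just below the lowest WT library. Its log2 change of -0.62 ± 0.165 (SE) missed the threshold (limma adjusted p = 0.0523). Of 7 other fits 6 called it lower, edgeR and DESeq2 among them (adjusted p from 4.03e-05 to 0.0632 over the 7), as did 2 of 8 fits without 1 library. It was also called when KO 7 and 8 were left out (-0.25, limma adjusted p = 0.0337) and when KO 5 and 6 were left out (-0.99, limma adjusted p = 9.2e-05), but not without WT 1 and 2 (-0.55, limma adjusted p = 0.267) or WT 3 and 4 (-0.69, limma adjusted p = 0.105).

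Acly and Acaca, which stand at the entry of the pathway, differed little from WT. Acly stood at 413, 409, 446 and 385 CPM in WT and at 405, 414, 329.9 and 322 CPM in KO, so that KO 5 and 6 lay among the WT libraries and KO 7 and 8 below them. Its log2 change was -0.10, with a 95% interval of -0.37 to 0.17. Acaca stood at 192.5, 180.3, 190.1 and 165 CPM in WT and at 179, 170.5, 150.2 and 154 CPM in KO. Its log2 change was -0.13, with a 95% interval of -0.31 to 0.05, and neither gene was called (limma adjusted p = 0.685 for Acly and 0.393 for Acaca).

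Scd1, the stearoyl-CoA desaturase, was the most abundant of the 10 genes per kb of exon, and its KO libraries lay on both sides of WT. WT libraries stood at 12747, 12482, 14012 and 12510.5 CPM. KO 5 and 6 stood at 16256 and 16798 CPM, above each WT library, and KO 7 and 8 at 8354 and 8489.8 CPM, below each of them. The log2 change was -0.20 (95% interval -0.70 to 0.30, limma adjusted p = 0.644). It was 0.28 without KO 7 and 8 (limma adjusted p = 0.108) and -0.59 without KO 5 and 6 (limma adjusted p = 0.0197), so its direction depends on which pair is used.

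Elovl6, which makes stearate from palmitate, split by the same pairs, but KO 5 lay among the WT libraries and KO 6 just above them. It stood at 60.03, 61.0, 67.8 and 59.5 CPM in WT, 62.6 and 68.2 CPM in KO 5 and 6, and 35.7 and 36.6 CPM in KO 7 and 8. The log2 change of -0.36 had a 95% interval of -0.82 to 0.10 (limma adjusted p = 0.334). It turned to 0.15 without KO 7 and 8, as Acly turned to 0.14 and Acaca to 0.02, and none of these was called. Without KO 5 and 6 all 3 were called lower in KO, Elovl6 at -0.79 (limma adjusted p = 0.00128), Acly at -0.36 (limma adjusted p = 0.0223) and Acaca at -0.27 (limma adjusted p = 0.0267).

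Thrsp had the largest fitted log2 change of the set, while its mean CPM stood at 52.7% of WT, against 51.9% for Srebf1. WT libraries stood at 144.6, 149.9, 131 and 116 CPM, KO 5 and 6 at 102 and 109.7 CPM, and KO 7 and 8 at 38.1 and 35.7 CPM. The groups did not overlap, with KO 5 and 6 just under WT and KO 7 and 8 far below it. The log2 change was -1.13 ± 0.338 (SE), with a 95% interval of -1.88 to -0.39 and a limma adjusted p of 0.0752. It was -0.28 without KO 7 and 8 (limma adjusted p = 0.0332) and -1.88 without KO 5 and 6 (limma adjusted p = 5.51e-06). It was not called without WT 1 and 2 (limma adjusted p = 0.292) or WT 3 and 4 (limma adjusted p = 0.156), and was called in 2 of 7 other fits and in 2 of 8 fits without 1 library. Pnpla3 stood at 0.529 to 1.52 CPM over the 8 libraries, below the 1 CPM in 4 libraries that a test required.

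Of the transcription factors, Srebf1 gave the most even KO values. WT libraries stood at 459, 460.5, 328 and 301 CPM, and KO libraries at 203, 188, 214 and 198 CPM. Here the split was in WT, where libraries 1 and 2 lay above 3 and 4, and every KO library lay below each WT library. Srebf1 fell from 387 ± 84.8 to 201 ± 10.7 CPM (SD, n = 4), with a log2 change of -0.88 ± 0.0903 (SE) and a limma adjusted p of 0.000582. The call held when each of the 4 pairs was left out, with changes from -0.70 (limma adjusted p = 0.00427, without WT 1 and 2) to -1.05 (limma adjusted p = 0.000428, without WT 3 and 4). With neighbours summed the change was -0.87 with a limma adjusted p of 0.153. Since its exons overlap those of Rai1 on the other strand, part of these reads may belong to that gene.

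Mlxipl split the other way from the enzymes. It stood at 455, 439, 458 and 406 CPM in WT, at 309 and 303 CPM in KO 5 and 6, and at 426 and 406.6 CPM in KO 7 and 8. KO 5 and 6 lay below the WT libraries and KO 7 and 8 among them. The log2 change was -0.26 ± 0.085 (SE, limma adjusted p = 0.101), and it was -0.39 without KO 7 and 8 (limma adjusted p = 0.0078) and -0.12 without KO 5 and 6 (limma adjusted p = 0.346).

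With neighbours summed, limma called 0 of the 9 genes in liver and 10 of all genes, while 4 of the 9 had an unadjusted p under 0.05. On single libraries edgeR called 3 of the 9 (Fasn, Srebf1 and Me1) and DESeq2 4 (the same with Mlxipl). Leaving out KO 5 and 6 gave 8 calls and leaving out KO 7 and 8 gave 5, all lower in KO, while without WT 1 and 2 Fasn and Srebf1 were called and without WT 3 and 4 Srebf1 alone. Of all genes these fits called 1033, 1417, 157 and 807, in that order. The counts over all genes were 807 with edgeR and 1408 with DESeq2, beside 757 in the main fit. The sum of the hepatocyte markers lay between 57073 and 74680 CPM in the WT libraries, was 68071 and 69786 CPM for KO 5 and 6 and lay above WT for KO 7 and 8 (90436 and 97720.1 CPM), so that the KO pairs split here as well. Of 10 hepatocyte markers 2 were called higher (Apoa1 and Fgb) and 1 lower (Tat). Kupffer cell markers summed to 192 to 242 CPM in WT and 214 to 243 CPM in KO. Of the adipocyte markers without Lipe, the sum of the other 7 stood at 26.4, 25.3, 5.26 and 4.63 CPM in WT and at 5.01, 4.85, 17.8 and 17.2 CPM in KO, and Adipoq, a defining gene of these cells, at 0 to 0.162 CPM in WT and 0 to 0.739 CPM in KO. The sum thus split by pairs, with WT 1 and 2 high as for Srebf1. In KO it was high in 7 and 8, where Fasn, Me1, Elovl6, Scd1 and Thrsp were lowest. The part of the adipocyte markers, of the hepatocyte marker shift and of the noncoding RNA share in the results was not tested.

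Other genes around the pathway were taken from 8 lists of named genes, over which 13 of 109 genes tested (11.9%) were called in liver, beside 5.91% of all genes. With neighbours summed limma called 0 of the 109, of which 14 had an unadjusted p under 0.05. Fgf21 is left out of these counts and medians, since its WT libraries were all under 1 CPM and it entered the test only through KO. Of the partners of acetyl-CoA carboxylase and FASN, 1 of 7 tested was called, lower in KO. This was Mid1ip1, a Thrsp paralog that promotes polymerization of acetyl-CoA carboxylase, at 68.5, 68.1, 58.5 and 52.0 CPM in WT and 36.0, 33.9, 24.9 and 23.8 CPM in KO. Its groups did not overlap, and KO 7 and 8 were again lowest. The log2 change was -1.08 ± 0.138 (SE, limma adjusted p = 0.0022). Its exons share 543 bp with a predicted gene on the other strand.

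Of the genes that supply substrate and NADPH, 0 were called higher and 2 of 15 lower. Pcx, which makes oxaloacetate from pyruvate, fell by 0.42 on the log2 scale (limma adjusted p = 0.00266), and Slc25a1, which exports citrate from mitochondria, fell by 0.25 (limma adjusted p = 0.0383). The median of the list was -0.19. Of 14 elongation and desaturation genes tested, Elovl2, for very long polyunsaturated chains, rose by 0.44 (limma adjusted p = 0.00115) and Elovl1, for saturated very long chains, fell by 0.44 (limma adjusted p = 0.0125). Of 17 glycerolipid and lipid droplet genes, Lpin2 (log2 change 0.30) and Plin2 (0.28) rose and Agpat2 (-0.27) fell. Lpin2 makes diacylglycerol, Plin2 coats lipid droplets and Agpat2 makes phosphatidic acid. Slc25a1 was called in 2 of the 8 fits that left out 1 library and Agpat2 and Plin2 in 1 of 8 each, while Pcx, Elovl1, Elovl2 and Lpin2 were called in 8 of 8.

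Of 20 regulators of lipogenic transcription, 1 was called. Insig2, which holds SREBP proteins in the endoplasmic reticulum, stood at 155, 155, 135 and 123 CPM in WT and at 181, 191, 175 and 181 CPM in KO. It rose by 0.39 ± 0.0634 (SE) on the log2 scale (limma adjusted p = 0.00679). Insig1, its relative, was not called (-0.15, limma adjusted p = 0.689). Of 9 genes of mitochondrial fatty acid synthesis, limma, edgeR and DESeq2 called 0, and 1 had an unadjusted p under 0.05. Of 18 genes of fatty acid oxidation, limma and edgeR called 0 and DESeq2 called 2, and 4 had an unadjusted p under 0.05 in limma.

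Of 9 insulin and fasting response genes, 4 were called higher and 0 lower, with a median log2 change of 0.50. Of all genes in liver 2.79% were called higher and 3.12% lower. With neighbours summed limma called 0 of the 9, of which 5 had an unadjusted p under 0.05. Igfbp1, an insulin-repressed binding protein for growth factors, stood at 21.2, 22.4, 32.0 and 28.9 CPM in WT and at 72.2, 78.9, 141 and 135 CPM in KO, a log2 change of 2.03 ± 0.224 (SE, limma adjusted p = 0.000975). Angptl4, an inhibitor of lipoprotein lipase induced by fasting, rose from 47.3 ± 7.67 to 103 ± 32.2 CPM (SD, n = 4, limma adjusted p = 0.00508). Fgf21, a hormone of fasting, stood at 0.148 to 0.777 CPM in WT and 1.35 to 2.48 CPM in KO, given as a description. Ppargc1a, a coactivator of gluconeogenic genes, rose by 0.67 (limma adjusted p = 0.0425, called in 2 of 8 fits without 1 library), and Irs2, an insulin receptor substrate on the list that is singled out here after its value was seen, by 0.83 (limma adjusted p = 0.0494, called in 2 of 8 such fits). Igfbp1 and Angptl4 were called in 8 of 8.

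In Igfbp1 and Angptl4, KO 7 and 8 stood highest, the mirror of their place in Fasn and Thrsp. The gluconeogenic genes Pck1 (log2 change 0.04) and G6pc (-0.12) were not called. Pck1 stood at 804 to 903.5 CPM in WT, at 651 and 659 CPM in KO 5 and 6, and at 1159 and 1120 CPM in KO 7 and 8, so that it split around WT in the reverse of Scd1. With neighbours summed the limma adjusted p of Igfbp1 was 0.101, that of Angptl4 0.196 and that of Mid1ip1 0.167.

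**Figure D2:**
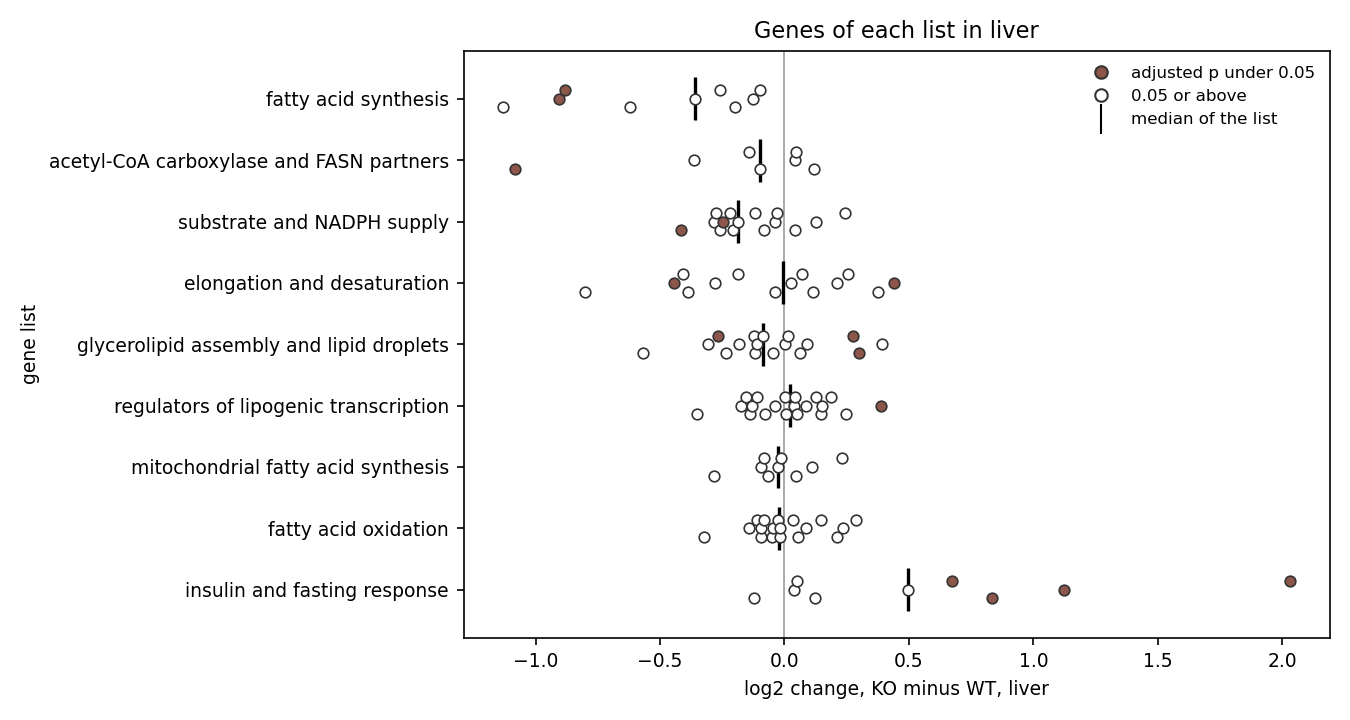
Each point is 1 tested gene of a list, with its log2 change between KO and WT liver on the horizontal axis and the list on the vertical axis. Filled points had a limma adjusted p under 0.05 and black bars are list medians, which run from -0.36 for fatty acid synthesis to 0.50 for the insulin and fasting response, where Fgf21 is left out.

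By the pattern over the 8 liver libraries, the genes most like the mean log2 CPM of the 10 members were sought among 8920 genes with a mean of at least 5 CPM. Acacb, the acetyl-CoA carboxylase at mitochondria that limits fatty acid oxidation, came first with a Pearson r of 0.997. It stood at 300.3, 291, 292 and 273 CPM in WT and 249.3, 249.04, 189 and 175 CPM in KO, and its log2 change of -0.36 was not called (limma adjusted p = 0.134). Tlr12 (0.989), Pdk1 (0.988), Ccdc12 (0.987) and Fzd7 (0.986) followed. With 8 libraries that fall into pairs, and the depth of each shared by all genes, these values are descriptions and were not tested.

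In cerebellum the pathway differed little between KO and WT. Fasn was the 1 gene called of 10 tested, higher in KO, beside 3.93% of all genes called higher and 2.51% called lower (6.44% in all). It stood at 235, 251, 243 and 217 CPM in WT and at 272, 256, 277 and 260.4 CPM in KO, so that the groups did not overlap, as in 8.79% of all genes in this direction and 4.99% in the other. Its log2 change was 0.19 ± 0.0447 (SE, limma adjusted p = 0.0293). It was called in 5 of 7 other fits, with adjusted p from 0.0141 to 0.825, and in 2 of 8 fits with 1 library left out. With neighbours summed, 0 of 10 genes were called by limma and 1 had an unadjusted p under 0.05.

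Acaca also lay above WT in 4 of 4 KO libraries in cerebellum, at 117 to 120.1 CPM in WT and 123 to 126 CPM in KO, and its log2 change of 0.08 was not called (limma adjusted p = 0.156). Scd1 stood at 148 to 158 CPM in WT and 156 to 165 CPM in KO (log2 change 0.07, limma adjusted p = 0.186). Srebf1 stood at 39.7 to 45.4 CPM in WT and 38.4 to 43.9 CPM in KO, and its interval of -0.19 to 0.07 leaves room for a small difference. Elovl6, Acly, Me1, Thrsp and Pnpla3 had log2 changes between -0.07 and 0.07. Mlxipl stood at 1.33 to 1.47 CPM in WT and 1.16 to 1.64 CPM in KO, close to the 1 CPM limit. The median over the 10 was -0.011, against -0.0059 for all genes.

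Markers of choroid plexus moved by pairs in cerebellum, at 157 and 152 CPM in WT 1 and 2, 19.1 and 19.3 CPM in WT 3 and 4, and 22.6 to 61.8 CPM in KO when summed. The hepatocyte list, of which Ttr is also a choroid plexus gene, ran from 2.65 to 964 CPM in WT and from 4.07 to 319 CPM in KO. Fasn stood at 235 and 251 CPM in WT 1 and 2 and at 243 and 217 CPM in WT 3 and 4. Of the 8 oligodendrocyte markers 2 were called higher in KO, with sums of 2611 to 3123 CPM in WT and 3025 to 3229 CPM in KO. Of 8 granule cell markers 4 were called lower, and 4 had positive estimates and were not called. Astrocyte and Bergmann glia markers were called higher in 3 of 8 and Purkinje cell markers in 2 of 8. Of all genes 3.93% were called higher and 2.51% lower. The part of these markers in the Fasn difference was not tested. Outside the set, Me3 (mitochondrial malic enzyme, log2 change 0.17, limma adjusted p = 0.034) and Tecr (the last step of elongation, 0.18, limma adjusted p = 0.0445) rose, each called in 2 of 8 fits without 1 library. Over the 8 lists 3 of 99 genes tested (3.03%) were called in cerebellum, beside 6.44% of all genes, and with neighbours summed limma called 0 while 18 had an unadjusted p under 0.05.

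In testes 7 of 9 genes tested had positive estimates, with a median log2 change of 0.22 that was -0.0097 without KO 7 and 8, where Fasn, Srebf1 and Thrsp turned negative. Acaca and Mlxipl were called higher, beside 9.74% of all genes called higher and 10.7% called lower (20.5% in all). Acaca stood at 147, 155, 143 and 144 CPM in WT and at 167, 172, 201 and 202 CPM in KO. Its groups did not overlap, as in 18.8% of all genes in this direction and 9.8% in the other, and the log2 change was 0.35 ± 0.0778 (SE, limma adjusted p = 0.0114). Mlxipl stood at 18.0, 16.9, 14.6 and 12.9 CPM in WT and at 19.7, 22.0, 27.5 and 31.7 CPM in KO, a log2 change of 0.58 ± 0.141 (SE, limma adjusted p = 0.0166). KO 7 and 8 were highest in both genes, and both were still called without them, at 0.21 (limma adjusted p = 0.00835) and 0.35 (limma adjusted p = 0.0386). Acaca was called in 8 of 8 fits without 1 library and Mlxipl in 6, with its call lost without WT 3 or WT 4 (limma adjusted p up to 0.0592). With neighbours summed neither was (limma adjusted p = 0.184 and 0.182), and limma called 0 of the 9 genes, of which 2 had an unadjusted p under 0.05.

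Fasn, Srebf1 and Acly were high in KO 7 and 8 alone. Fasn stood at 177, 208, 184 and 183 CPM in WT, 171 and 178 CPM in KO 5 and 6, and 279 and 292 CPM in KO 7 and 8 (log2 change 0.29, limma adjusted p = 0.23). The WT libraries held 15.6 to 22.7 CPM of Srebf1, against 17.1 and 17.5 CPM in KO 5 and 6 and 26.1 and 26.4 CPM in KO 7 and 8. Those of Acly lay between 71.8 and 82.6 CPM, against 76.6 and 77.4 CPM in KO 5 and 6 and 111.7 and 94.5 CPM in KO 7 and 8. The 3 genes were called without KO 5 and 6 (log2 change 0.66, 0.47 and 0.44, with limma adjusted p of 5.85e-05, 0.0135 and 0.0013), and 6 of 9 genes were called in that fit. That fit called 8098 of all genes, against 3957 in the main fit. Me1, at 346 to 363 CPM in WT and 360.3 to 411 CPM in KO, had a log2 change of 0.15 (limma adjusted p = 0.105).

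Scd1 went the other way in testes. It stood at 91.4, 85.6, 66.6 and 65.8 CPM in WT, 30.2 and 30.9 CPM in KO 5 and 6, and 61.1 and 96.5 CPM in KO 7 and 8, where KO 8 was the highest of the 8. The log2 change was -0.70 (95% interval -1.35 to -0.04, limma adjusted p = 0.116). It was -1.38 without KO 7 and 8 (limma adjusted p = 0.000336) and -0.05 without KO 5 and 6 (limma adjusted p = 0.8288). Adipocyte markers moved with it. Of 8 markers, 4 were called lower in KO (Adipoq, Lep, Retn and Lipe) and 8 of 8 had negative log2 changes, and Lipe, which testes express strongly, made up most of their sum. Without Lipe the sum of the other 7 lay between 26.9 and 41.4 CPM in the WT libraries, against 15.8, 14.1 and 18.6 CPM in KO 5 to 7, and 51.3 CPM in KO 8. None of the 8 was at 0 in testes, and their part in the Scd1 difference was not tested. Scd2, the paralog that is common outside liver and could share reads with Scd1, rose by 0.42 on the log2 scale (limma adjusted p = 0.0452).

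**Figure D3:**
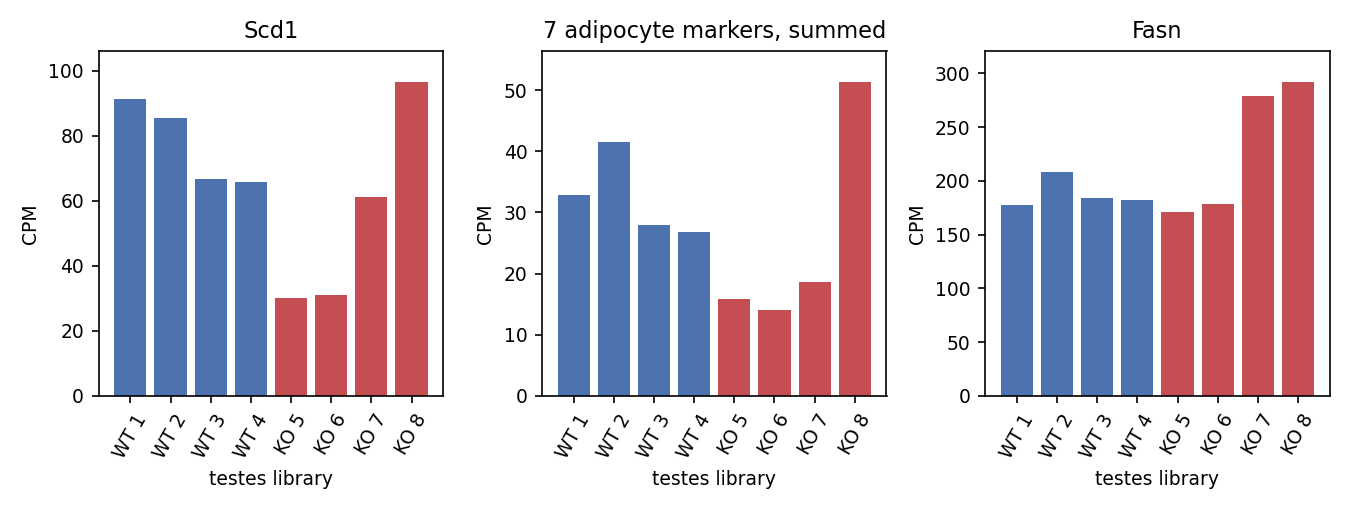
Bars give the CPM of 1 testes library each, WT in blue and KO in red, for Scd1, for the sum of 7 adipocyte markers without Lipe and for Fasn. Scd1 and the markers are lowest in KO 5 and 6 and highest in KO 8, while Fasn is highest in KO 7 and 8, at 279 and 292 CPM.

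Cell markers also differed between KO and WT testes. Of 8 Sertoli cell markers 7 were called higher, beside 9.74% of all genes called higher and 10.7% called lower. Their sums were 1042 to 1241 CPM in WT and 1336 to 1949 CPM in KO. Of 8 Leydig cell markers 2 were called higher and 1 lower, and their sum was highest in KO 7, at 1627 CPM. Of 8 spermatocyte markers 2 were called lower, with 4 positive and 4 negative estimates. Round and elongating spermatid markers were called lower in 4 and 5 of 8, and the elongating sums fell from 13251 to 13939 CPM in WT to 9683 to 12154 CPM in KO. KO 7 and 8 stood farthest from WT in the elongating sums, as they did for Fasn, Acaca and Mlxipl. Fewer germ cells and more RNA in other cells cannot be told apart here, and their part in these results was not tested. Thrsp (0.911 to 2.32 CPM) and Pnpla3 (0.192 to 0.692 CPM) were too low in testes for a firm statement, and Elovl6 had a log2 change of -0.05 with a 95% interval of -0.26 to 0.17.

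Over the 8 lists around the pathway, 18 of 101 genes tested (17.8%) were called in testes, close to the 20.5% of all genes. With neighbours summed limma called 0 of them, and 17 had an unadjusted p under 0.05. Here 3 of 13 elongation and desaturation genes were called higher and 1 lower. Hacd3 (0.25) and Elovl5 (0.26) rose with Scd2, and Hacd1 (-0.32) fell. Among supply genes Me3 fell by 0.55 (limma adjusted p = 0.00528). Prkaa2, a catalytic subunit of AMP-activated kinase, rose by 0.42. Of 16 glycerolipid genes Gpam (0.29) and Lpin2 (0.28) rose, and Agpat2 (-0.52), Plin2 (-0.28) and Dgat2 (-0.15), the last named after its value was seen, fell. Of 20 regulators Mbtps1, a protease that activates SREBP proteins (0.35), and Nfyb, a subunit of NF-Y (0.39), rose, and Nr1h3, the receptor LXRα (-0.55), fell. Pdk4 (0.71) and Angptl4 (0.62) rose too. Of these genes Me3, Prkaa2, Agpat2, Nr1h3 and Pdk4 were called in 8 of 8 fits without 1 library, Lpin2, Mbtps1 and Angptl4 in 6, Hacd3 in 5 and Plin2 and Nfyb in 4. Scd2, Elovl5, Hacd1, Gpam and Dgat2 were called in 2 of 8 each, and Scd2 and Hacd1 in 3 of 7 other fits.

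**Figure D4:**
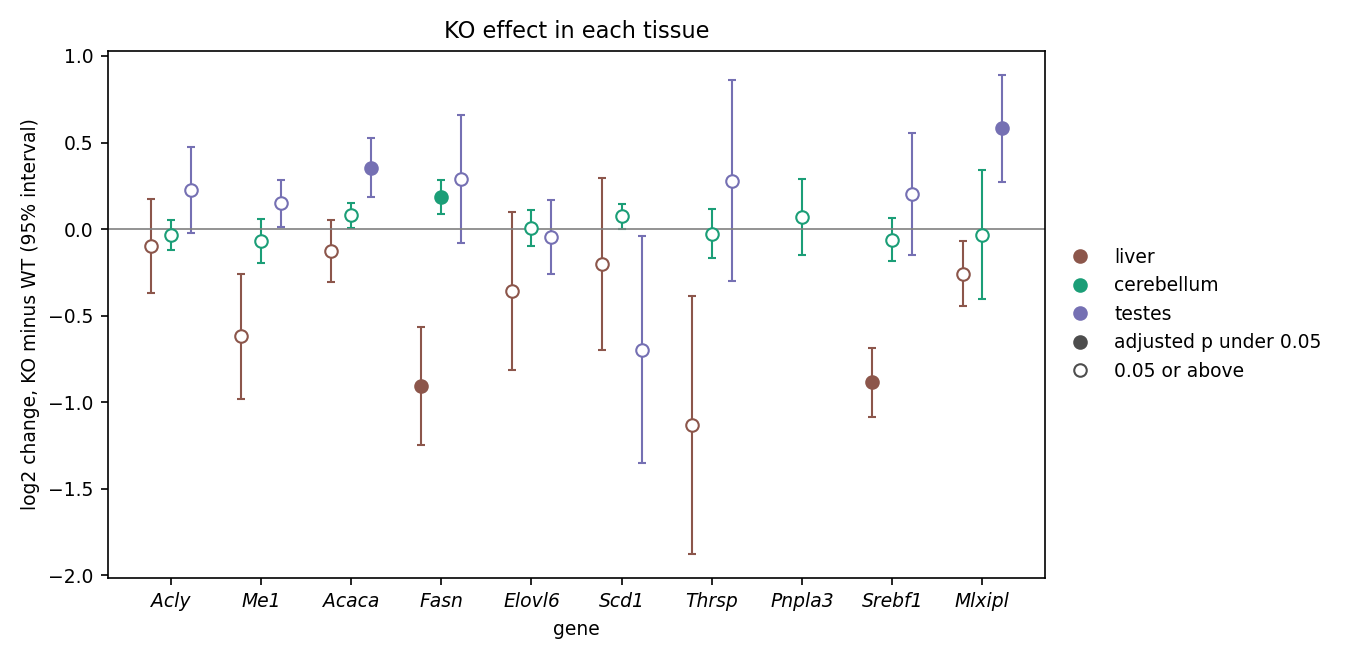
The log2 change between KO and WT is on the vertical axis for each gene and tissue, with 95% intervals from limma-voom, and filled points had an adjusted p under 0.05. The liver points of Thrsp, Fasn and Srebf1 lie lowest, at -1.13, -0.91 and -0.88, followed by Scd1 in testes at -0.70 and Me1 in liver at -0.62, and Pnpla3 was tested in cerebellum alone.

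The differences between tissues were tested over all 24 libraries, as the KO effect in another tissue minus that in liver. Pnpla3 entered this fit only through cerebellum, and its values here are a description. For cerebellum, 3 of 10 genes were called, each with a higher effect than in liver, beside 1.25% of all genes in this direction and 1.23% in the other (2.49% in all). These were Fasn with a difference of 1.14 ± 0.185 (SE, limma adjusted p = 0.00171), Srebf1 with 0.90 ± 0.22 (SE, limma adjusted p = 0.0328) and Me1 with 0.69 ± 0.18 (SE, limma adjusted p = 0.0434). The comparison with testes gave 6 of 10, beside 4.58% of all genes in this direction and 2.45% in the other (7.03% in all). The differences were 1.18 for Fasn (limma adjusted p = 0.000704), 1.21 for Srebf1 (0.00493), 0.78 for Me1 (0.00172), 0.48 for Acaca (0.00169), 0.94 for Mlxipl (0.0131) and 0.42 for Acly (0.0403). Both comparisons share the 8 liver libraries. With no filter on low counts the calls dropped to 0 and 2 in limma, where 6 genes had an unadjusted p under 0.05 in each.

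These calls rest on single libraries as the unit. With neighbours summed in each tissue, limma called 0 of 10 genes in either comparison, and 3 genes had an unadjusted p under 0.05 for cerebellum and 6 for testes. Fasn then differed by 1.15 between cerebellum and liver (limma adjusted p = 0.169) and by 1.17 between testes and liver (limma adjusted p = 0.144). Leaving out 1 pair of liver libraries gave 1 to 4 calls for cerebellum, with Fasn among them each time, and 5 to 8 for testes, with Fasn, Srebf1, Me1, Acaca and Mlxipl among them each time. Me1 against cerebellum was called in 2 of 5 other fits (lost, among others, with the replicate block, limma adjusted p = 0.0671) and in 5 of 24 fits without 1 library, and Srebf1 in 3 of 5 and 17 of 24. Acly against testes was called in 2 of 5 and 12 of 24, and was lost over genes expressed in all 3 tissues (limma adjusted p = 0.113). On simulated data the test of such differences called more unchanged genes than its threshold allows.

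Testes and cerebellum were not told apart. Limma, edgeR and DESeq2 called 0 of 10 genes, and 1 had an unadjusted p under 0.05 in limma, beside 6.14% of all genes called (4.28% higher and 1.86% lower in testes). The interval of the difference ran from -0.39 to 0.47 for Fasn and from 0.04 to 0.39 for Acaca, and the widest, for Thrsp, ran from -1.39 to 2.13.

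The WT libraries give the levels of these genes in each tissue. In liver, per kb of annotated exon, Scd1 led with 2645 ± 148 CPM per kb (SD, n = 4) and Fasn followed with 149.9 ± 10.4. Me1 (86.4 ± 12.0), Mlxipl (79.4 ± 4.32), Acly (78.3 ± 4.76), Srebf1 (68.7 ± 15.1) and Thrsp (61.8 ± 6.98 CPM per kb) came next, and each overlapped the next in this order. Acaca (10.7 ± 0.743) and Elovl6 (9.65 ± 0.599 CPM per kb) overlapped, and Pnpla3 was lowest at 0.642 ± 0.226. Exon length here is the union over all transcripts, so a gene with many alternative exons, such as Acaca with 17074 bp, reads low. The 10 genes held 1.58% to 1.78% of the counts of a WT liver library, 1.05% to 1.93% in KO liver, and 0.0805% to 0.113% in the other tissues.

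In cerebellum, Scd1 (31.4 ± 0.82), Acly (24.8 ± 1.04) and Fasn (21.6 ± 1.34 CPM per kb) led and Mlxipl was last at 0.252 ± 0.0116. In testes, Me1 led at 92.7 ± 1.9 CPM per kb and Fasn followed at 17.2 ± 1.26, next to Scd1 at 15.8 ± 2.68, with which it overlapped. Between WT tissues, the 9 genes other than Pnpla3 all differed between liver and cerebellum, where 85.3% of all genes did (42.5% higher and 42.9% lower in cerebellum). With TMM scaling the log2 difference of cerebellum from liver was -9.47 for Mlxipl, -7.59 for Scd1, -3.99 for Fasn and 1.97 for Pnpla3, whose value is a description since it passed the filter only through cerebellum. The other 9 were lower there. With quantile normalization over the 24 libraries they were lower too, but the difference was -2.43 for Fasn and -5.75 for Scd1, so the sizes rest on the scaling. For Elovl6 it was -0.79 with TMM scaling, but its unscaled CPM was higher in cerebellum (81.9 against 62.1), so its direction rests on the scaling.

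Testes also differed from liver in these 9 genes, beside 89.7% of all genes (55.8% higher and 33.9% lower in testes), with log2 differences of -8.33 for Scd1, -7.62 for Thrsp and -4.06 for Fasn. With quantile normalization these were -6.87, -9.98 and -2.88. With no filter on low counts Scd1 was not called in limma against liver in either tissue (adjusted p = 0.0722 for cerebellum and 0.0784 for testes). For Me1 it was -0.83 with TMM scaling, while its unscaled CPM was 357 in testes and 332 in liver, so this direction also rests on the scaling. Testes and cerebellum differed in 7 of the 9, beside 89.3% of all (50.7% higher and 38.5% lower in testes). With neighbours summed the same calls were made. The log2 difference of testes from cerebellum was 3.33 for Me1, 3.71 for Mlxipl, -2.93 for Elovl6 and -3.92 for Pnpla3. Fasn (-0.07, 95% interval -0.38 to 0.24) and Scd1 (-0.74, limma adjusted p = 0.057) were not called, though Fasn was called with quantile normalization (-0.46, limma adjusted p = 0.0167) and Scd1 was called in 4 of 5 other fits, those with edgeR, DESeq2, quantile normalization and the replicate block (adjusted p from 0.00846 to 0.904 over the 5), and in 4 of 24 fits without 1 library.

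**Figure D5:**
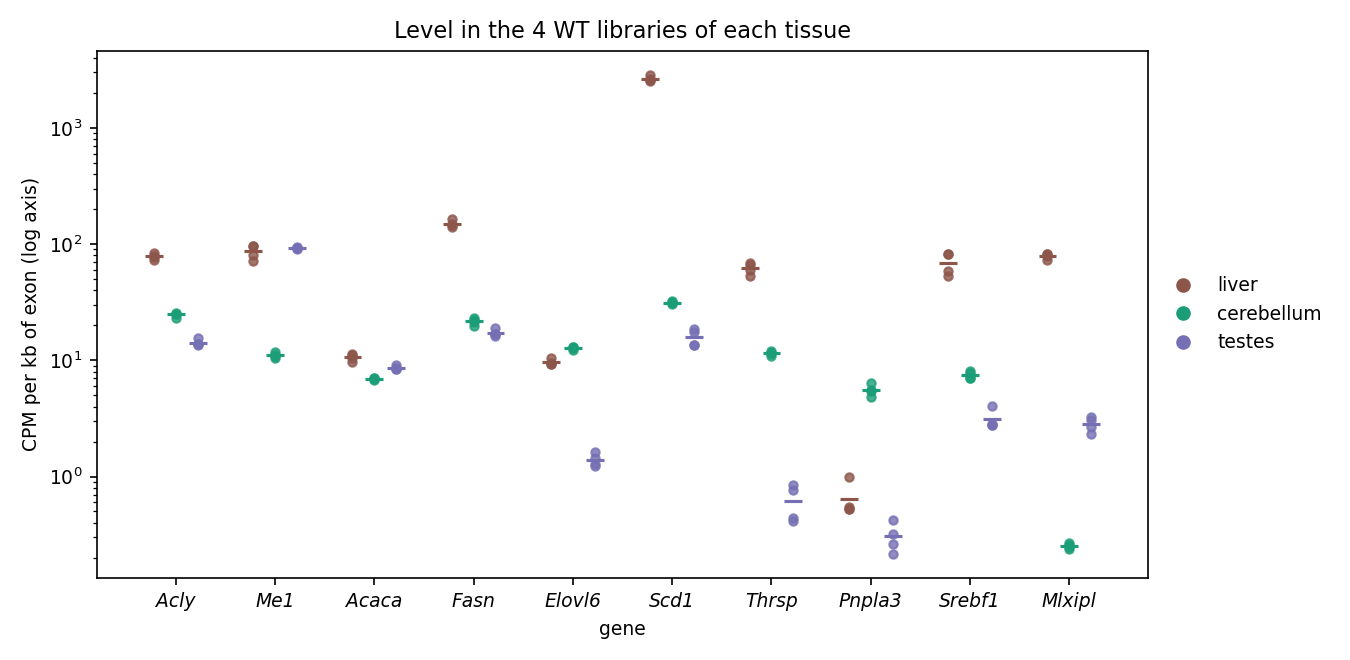
Points are the 4 WT libraries of each tissue and bars their mean, in unscaled CPM per kb of exon on a log axis. Liver stands highest for 7 of the genes, testes for Me1, and cerebellum for Pnpla3 and Elovl6.

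Since Thumpd1 acts on leucine and serine transfer RNAs, the codons of the set were counted in the annotated coding sequences. Leucine made up 8.07% (Acly) to 14.1% (Srebf1) of codons, around the median of 10.2% over 21471 genes, and serine 4.55% (Me1) to 10.6% (Mlxipl), around 7.86%. Fasn held 12.7% leucine over 2504 codons. The codons UUA, UUG, CUU and CUA made up 13.2% of the leucine codons of Scd1 and 16% of those of Pnpla3, against a median of 40.7%, and 50.5% in Acaca, the highest of the set. In this share Fasn (28.1%), Srebf1 (29.4%), Acly (30.7%) and Elovl6 (31.0%) lay near each other. In total leucine Fasn (12.7%) and Srebf1 (14.1%) lay above Elovl6 (10.9%) and Acly (8.07%). The part of codon content in the changes was not tested.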

How the data were processed

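RNA was measured in 24 libraries of mouse liver, cerebellum and testes, with 4 WT and 4 Thumpd1 KO libraries per tissue. RNA was extracted with Trizol per the labels, while the study's methods name TRI reagent and a column kit. Per the methods, ribosomal RNA was depleted, stranded total RNA libraries were sequenced as read pairs, and reads were aligned with STAR and assigned to genes of GENCODE M21 on mm10 with RSEM. The versions and the strand setting of the counting are not given in the sources used here. The authors deposited 1 table of expected counts, estimated per gene and not scaled, and each of its columns matched 1 sample (0 columns had no sample). CPM divides a gene's count by all counts of its library. RSEM shares a read among genes it could come from, so the counts of paralogs are estimates.

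Genes with at least 1 CPM in at least 4 of the 8 libraries of a tissue were tested in limma-voom (limma 3.58.1, R 4.3.3) with quantile normalization, as in the study's methods, and p-values were adjusted over all genes by Benjamini-Hochberg, with a threshold of 0.05. Differences between tissues were tested in 1 limma-voom fit over 24 libraries with TMM scaling, over 22678 genes. Scripts were tested on simulated data, where the tests of a difference between tissues called more unchanged genes than the threshold allows, more so over all genes than over genes expressed in all 3 tissues. Alternatives were edgeR 4.0.16 and DESeq2 1.42.0 on rounded counts, TMM scaling with and without 6 noncoding RNAs, no filter, sample quality weights, 1 fit over 24 libraries, and leaving out each library. Depth limits genes near 1 CPM, and a gene at 0 counts may have up to 3 counts of the total, an allowance for counting error only.

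The genes and the lists around them were chosen with earlier results of these data known. Named genes were the 10 members, for each list and tissue up to 4 called genes with the smallest adjusted p, the 5 genes most like the members in liver, and Thumpd1. Some genes that this rule names are not reported here. Positions come from GENCODE M21 on mm10, in which 55450 of 55450 gene IDs were found, and promoter sequences from RefSeq on GRCm38.p6. Figures were drawn with matplotlib 3.10.9 in Python 3.11.15.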

Additional observations from a re-analysis of the deposited data

Results flagged for a closer look

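Values of 1 library stood apart from the other 3 of their group in 4 of 60 combinations of gene and group, where the critical gap is passed by chance in about 1 of 20. In WT testes, replicate 2 held 22.7 CPM of Srebf1 against 15.6 to 15.98 CPM in the other libraries, and 82.6 CPM of Acly against 71.8 to 72.9 CPM. Pnpla3 stood at 1.52 CPM in WT liver replicate 4, against 0.806 to 0.840 CPM, and at 0.692 CPM in KO testes replicate 8, against 0.192 to 0.273 CPM.

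The KO effect was called as different between tissues for 6 of the genes in limma over 24 libraries. The effect in cerebellum exceeded that in liver by 1.14 for Fasn, 0.90 for Srebf1 and 0.69 for Me1 on the log2 scale. The effect in testes exceeded that in liver by 1.18 for Fasn, 1.21 for Srebf1, 0.78 for Me1, 0.48 for Acaca, 0.42 for Acly and 0.94 for Mlxipl. Both comparisons used the same liver libraries, in which KO 5 and 6 and KO 7 and 8 differed as described above. With neighbouring libraries summed limma called 0 of these differences, and on simulated data the test called more unchanged genes than its threshold allows.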

How the results depend on the processing

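Summing neighbouring libraries, leaving out a neighbouring pair and testing genes expressed in all 3 tissues were chosen after seeing the data. In liver, the count of fatty acid synthesis genes called (2 in limma) was 4 with DESeq2 or quality weights, 6 in 1 fit over 24 libraries, 0 with neighbours summed, 1 without WT 3 and 4, 8 without KO 5 and 6, and 5 without KO 7 and 8. Genes called in liver (757) were 1408 with DESeq2, 1705 with quality weights, 1584 in 1 fit over 24 libraries, 10 with neighbours summed, 157 without WT 1 and 2 and 1417 without KO 7 and 8. In cerebellum the 1 call was 0 with edgeR, where 1 gene had an unadjusted p under 0.05, with neighbours summed and in 1 fit over 24 libraries. Genes called there (1045) were 681 with no filter, 1757 with quality weights, 48 with neighbours summed and 195 in 1 fit over 24 libraries. In testes the 2 calls were 0 with neighbours summed and 6 without KO 5 and 6, and genes called (3957) were 6107 with quality weights, 1 with neighbours summed and 8098 without KO 5 and 6. The 3 differences between cerebellum and liver were 1 with quantile normalization 0 with no filter (6 with an unadjusted p under 0.05), 0 with neighbours summed (3 with an unadjusted p under 0.05) and 1 without WT liver 1 and 2, and the 6 between testes and liver were 2 with no filter and 0 with neighbours summed (6 with an unadjusted p under 0.05). With neighbours summed there are fewer samples, and for the other settings the cause was not tested.

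Leaving out 1 library gave 284 to 795 genes called in liver (284 without WT 1, 316 without WT 2, 462 without WT 3 and 359 without KO 8), 417 to 2317 in cerebellum (417, 463 and 472 without WT 1, 3 and 4, and 438, 2317, 543 and 545 without KO 5, 6, 7 and 8) and 1711 to 4913 in testes (2597, 1711 and 1724 without WT 2, 3 and 4, and 2545 without KO 7). Fatty acid synthesis genes called were 2 to 4, 0 to 1 and 1 to 3, the differences called were 1 to 4 (cerebellum and liver), 5 to 6 (testes and liver) and 0 to 0 (testes and cerebellum), and WT levels called were 10 to 10, 10 to 10 and 8 to 9 (1 fewer each without Pnpla3, whose call is a description). Fasn and Srebf1 were called in liver in all 8 of these fits.

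No paired analysis was possible within a tissue because WT and KO share no replicate number. Between tissues, same-numbered libraries correlated at -0.19 to 0.17, with 9 of 24 over 0.1 and 8 of 24 best matched to their own number. The 4 KO pairs of liver and testes were all over 0.1 and the 4 WT pairs were not, and the numbers were not taken to pair the libraries. A replicate block gave 2 calls between cerebellum and liver (Fasn and Srebf1), 6 between testes and liver and 0 between testes and cerebellum, and 9, 9 and 8 for WT levels without Pnpla3.

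Directions turned in these cases, none of them called under the setting named. Without KO 7 and 8 in liver, Acaca was 0.0206, Scd1 0.28, Elovl6 0.15 and Acly 0.14, and in testes Fasn was -0.0879, Srebf1 -0.0814 and Thrsp -0.0097. In cerebellum, Elovl6 was -0.00041 with TMM, -0.0020 with weights, -0.0187 over 24 libraries and -0.0254 to 0.0469 without 1 library, Thrsp was -0.0757 to 0.0255 without 1 library (positive without KO 6), and Mlxipl was 0.0253 with edgeR, 0.0252 with DESeq2, 0.0173 with TMM, 0.0226 without the noncoding RNAs, 0.000365 over 24 libraries and -0.10 to 0.0719 without 1 library (positive without KO 8). Elovl6 in testes was 0.0274 with weights and -0.0945 to 0.0235 without 1 library (positive without WT 1). Of the differences between tissues, Scd1 (cerebellum minus liver) was -0.20 with no filter and -0.22 without KO liver 7 and 8, and Pnpla3 (testes minus liver) 0.0518 with quantile normalization. Testes minus cerebellum, Fasn was -0.0394 with DESeq2, -0.0049 with no filter, -0.0412 over genes in all 3 tissues, and -0.0790 to 0.17 without 1 library (negative without KO testes 7 or 8), and Me1 was -0.0208 with DESeq2. Elovl6 there was -0.0040 with edgeR, -0.11 with DESeq2, -0.0661 with quantile normalization, -0.0727 with no filter, -0.0146 with neighbours summed, -0.0026 with the replicate block, -0.0834 over genes in all 3 tissues and -0.0530 to 0.0719 without 1 library. The WT level of Fasn in testes against cerebellum was 0.0123 with DESeq2.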
